A study of Mus musculus with 2 samples.

Results

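Collagens are the structural proteins of the extracellular matrix, built from intertwined helical chains. Fibrillar collagens (types I, III and V among them) form the banded fibrils of connective tissue, type VI forms beaded filaments around cells, and the fibril-associated collagens sit on fibril surfaces. Other members build networks under epithelium and endothelium or stay in the plasma membrane, and in salivary glands fibroblasts of the stroma between acini and around ducts are the known makers of most fibrillar collagen. The genes described here were all symbols of the deposited feature lists with the form Col, number, a, number, except *Col4a1* and *Col4a2*, the common chains of basement membranes, which left 42 collagen genes of 50768 listed genes. The rule took out only that pair, so *Col4a3* to *Col4a6*, *Col15a1* and *Col18a1*, whose products also lie in basement membrane zones, were among the 42 members.

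The study dissociated submandibular glands with the adjacent sublingual glands of female mice aged 20 weeks and enriched stromal cells by depleting EpCAM+ epithelial and Ter119+ red cells. NOD/ShiltJ mice, an untreated inbred strain that develops autoimmune diabetes and lymphocytic infiltration of the glands, were compared with untreated CD1 mice, an outbred control stock, so strain background and disease cannot be told apart. The mice of a strain were pooled into 1 library (4 mice in the methods, 3 in the labels), both libraries carry batch number 1, and no replicate exists. No test was therefore possible. Values are unique molecular identifier (UMI) counts, or CPM, the usual depth-scaled count, taken over all UMIs of a lineage, with exact 95% intervals that cover counting error only.

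The NOD library held 6500 cells of at least 500 UMIs and 300 genes (43439635 UMIs, median 5719.5 per cell) and the CD1 library 7014 (49420810 UMIs, median 6495), with 18 barcodes present in both. Cells were given to 7 lineages by the UMIs of marker lists that contain no collagen. In each library every marker was highest in its own lineage except *Mertk* in the macrophage list, which stood higher in another lineage. The same lists placed the cells, so this order was largely set by the rule and is no check of the lineages. In NOD there were 61 fibroblast-like, 14 mural-like, 1080 endothelial-like, 697 macrophage-like, 465 NK-like, 1988 T-like and 889 B-like cells. In CD1 the numbers were 16, 7, 2915, 2910, 299, 133 and 8. Strain ratios are given only for the 4 lineages with at least 100 cells in both libraries, which leaves out fibroblast-like, mural-like and B-like cells.

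Fibroblast-like cells had the highest level of most collagens, and a small number were highest in mural-like cells, endothelial-like cells or lymphocytes. No member was highest in macrophage-like cells. Of the 33 members with at least 20 UMIs over the lineages in NOD, 24 (72.7%) were highest in fibroblast-like cells, where 15.0% of all 16728 genes with that depth were. In CD1 the count was 20 of 25 members, beside 15.1% of 16805 genes. The interval was clear of the next lineage for 21 of the 24 in NOD and 18 of the 20 in CD1. No member highest in mural-like cells, or in lymphocytes of CD1, had such an interval. Of the 24 members with this depth in both libraries, 18 had the same highest lineage in both. The like share over all genes is not given here, so this count is not read as particular to the members. The 6 members with different highest lineages were *Col5a3*, *Col8a1*, *Col8a2*, *Col9a3*, *Col18a1* and *Col23a1*, of which only *Col8a1* had an interval clear of the next lineage in each library. The summed level of all members was 15248 CPM (14936 to 15564) in fibroblast-like cells of NOD and 15051 (14392 to 15732) in those of CD1. It was 766 and 933 in endothelial-like cells, 316 and 339 in macrophage-like cells, 78.1 and 44.3 in NK-like cells, and 69.7 and 16.8 in T-like cells. Barcodes with 10 to 100 UMIs, which hold mostly RNA released from broken cells, carried the members at 289 CPM in NOD and 448 in CD1, above the level in lymphocytes. The 448 was also above the 339 of CD1 macrophage-like cells, and the 289 was not far below the 316 of those of NOD.

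**Figure D1:**
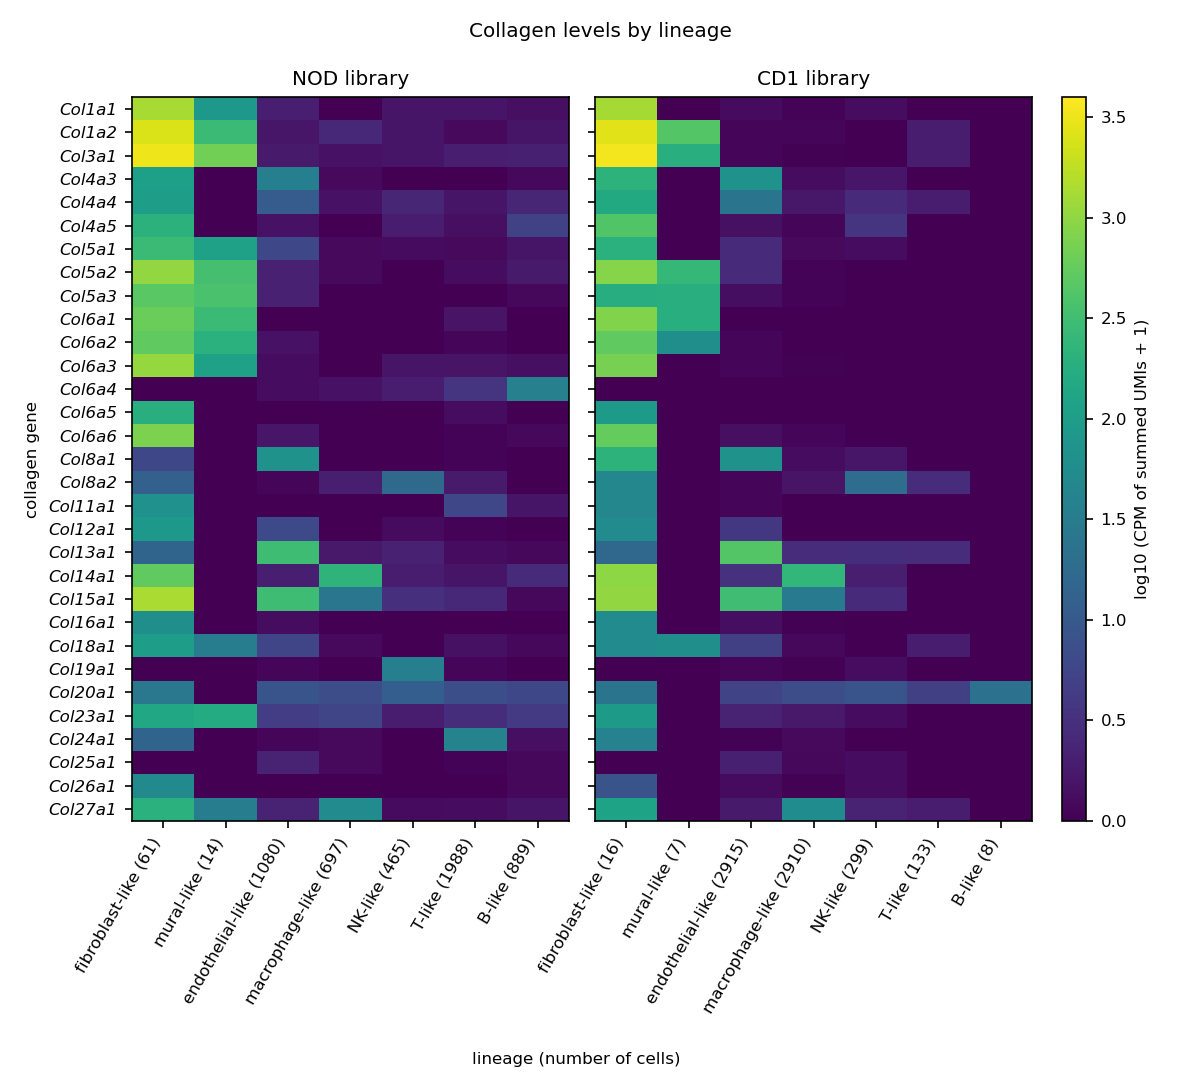
Level of the 31 collagens with at least 20 UMIs in some lineage (rows) in each of the 7 lineages (columns, with the number of cells), as log10 of CPM + 1, for the NOD library (left) and the CD1 library (right). The fibroblast-like column is brightest for most rows, while outside that column *Col13a1*, *Col15a1* and *Col8a1* stand out in endothelial-like cells, *Col14a1* and *Col27a1* in macrophage-like cells, and *Col24a1*, *Col19a1* and *Col6a4* in T-like, NK-like and B-like cells of NOD.

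In fibroblast-like cells the fibrillar collagens led. *Col3a1*, the chain of type III collagen, stood at 3265 CPM (3122 to 3413) in NOD and 3450.3 (3139 to 3784) in CD1. *Col1a2*, a chain of type I collagen, stood at 2499 CPM (2374 to 2630) and 2714 (2439 to 3012), and *Col1a1*, the other chain of that fibril, at 1360.3 (1268 to 1457) and 1303 (1115 to 1515). *Col5a2*, a chain of type V collagen, which regulates fibril diameter, was found at 1035 CPM (955 to 1120) and 874 (721 to 1050). *Col3a1* and *Col1a2* alone made up 21.4% and 16.4% of the members' UMIs in these cells of NOD and 22.9% and 18.0% in CD1. The other chains of type V collagen were lower, *Col5a1* with 283 and 199 CPM and *Col5a3* with 482 and 176. *Col11a1*, a minor fibrillar chain best known from cartilage, was detected with 39 UMIs in NOD and 6 in CD1.

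Of the chains of the beaded filament, *Col6a1* had 619.8 CPM in NOD and 820.4 in the other library, *Col6a2* had 531 and 521, and *Col6a3* had 1086 and 728. The more restricted chains *Col6a5* (106 and 12 UMIs) and *Col6a6* (470 and 73 UMIs) were also found in fibroblast-like cells, at 178 and 92.0 CPM and at 787 and 559.7 CPM. *Col6a4* was not found there in either library. Among the multiplexins, *Col15a1* stood at 1399 CPM (1306 to 1497) in NOD and 1050.4 (882 to 1242) in CD1, above every type VI chain. Of the fibril-associated collagens, *Col14a1* stood at 524 CPM (468 to 586) and 974 (812 to 1159), and *Col12a1* and *Col16a1* were below 100 CPM in both. The rarer chains of type IV collagen were present too, *Col4a5* with 121 and 54 UMIs, *Col4a3* with 63 and 28, and *Col4a4* with 61 and 20. *Col27a1*, a fibrillar collagen best known from cartilage, stood at 196 CPM (162 to 235) and 123 (70.1 to 199), its highest level in each library. *Col26a1* had 30 UMIs in NOD (50.3 CPM) and 1 in CD1.

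These levels rested on few cells, and CD1 had only 16 of them. Over single cells the members took from 0.0677% to 3.05% of a cell's UMIs in NOD, with a median of 1.28%, and from 0.102% to 2.82% in CD1, with a median of 1.08%. The ranges overlapped almost wholly. One cell held 20.7% of the members' UMIs in the CD1 group and one held 10.6% in NOD. Of these cells 22 of 61 in NOD and 7 of 16 in CD1 had more than 10% mitochondrial UMIs, and a doublet score ranked 3 and 6 of them among those to remove. Across the alternatives in how cells were kept or named, the summed level stayed between 14969 and 15710.3 CPM in NOD and between 15051 and 16496 in CD1. No strain ratio is drawn from these cells. *Col1a1* and *Col14a1*, a fibrillar and a fibril-associated member, shared a cell 41 times among 61 in NOD and 9 times among 16 in CD1. Their separate frequencies, without regard to cell depth, would give 36.1 and 6.75.

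Mural cells are the pericytes and smooth muscle cells around vessels. The smooth muscle genes *Acta2*, *Myh11* and *Cnn1* were in a separate list of myoepithelial markers. Smooth muscle cells of vessels may thus be missing from the mural-like cells. Mural-like cells had 163 UMIs of the members in 14 NOD cells and 22 in 7 CD1 cells. Their leading members in NOD were *Col3a1* (41 UMIs), *Col5a3* (22), *Col5a2* (21), *Col1a2* (17) and *Col6a1* (17). *Col6a6*, *Col14a1* and *Col15a1*, all plentiful in fibroblast-like cells, had 0 UMIs in the mural-like cells of both libraries, which at this depth allows up to 49.5 CPM in NOD and 185 in CD1. Of the 14 NOD cells, 11 had doublet scores among those to remove, and the part of this in the mural values was not tested.

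In endothelial-like cells the member with the highest level was *Col13a1*. This gene encodes a transmembrane collagen of cell adhesion sites. It had 1856 UMIs in NOD endothelial-like cells (306 CPM, 292 to 320) and 8445 in CD1 (434 CPM, 425 to 443), which were 98.9% and 99.5% of its UMIs over the 7 lineages. A *Col13a1* UMI was found in 60.2% of these cells in NOD and 71.3% in CD1, against 4 of 1988 and 2 of 133 T-like cells. With each cell thinned to 500 UMIs the shares were 13.8% and 16.6% in endothelial-like cells and 0% in T-like cells of both libraries. *Col15a1* was nearly as plentiful, at 304 CPM (290.3 to 318) and 314 (307 to 322), although its level in fibroblast-like cells was higher. *Col13a1* and *Col15a1* together made up 40.0% and 39.7% of the members' endothelial UMIs in NOD and 46.5% and 33.7% in CD1. *Col8a1*, a short-chain network collagen of vessel walls, followed with 427 UMIs (70.4 CPM) and 1323 UMIs (64.4 to 71.8 CPM). In fibroblast-like cells it had 3 UMIs in NOD (5.03 CPM) and 28 in CD1 (215 CPM), so its highest lineage was not the same in the libraries. *Col4a3* and *Col4a4*, chains of the specialised type IV network best known from kidney glomeruli, had 210 and 62 UMIs in NOD and 1332 and 446 in CD1. Both were higher in fibroblast-like cells, *Col4a3* with 106 CPM against 34.6 in NOD and 215 against 68.5 in CD1, and *Col4a4* with 102 against 10.2 and 153 against 22.9. *Col25a1*, a transmembrane collagen, had 8 and 21 UMIs in endothelial-like cells (1.32 and 1.08 CPM) and 0 in fibroblast-like cells.

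The endothelial members were divided between kinds of vessel, told apart by marker lists without collagens (*Gja5*, *Sox17* and *Hey1* among the arterial and *Rgcc*, *Gpihbp1* and *Car4* among the capillary markers). Arterial-like cells carried *Col8a1* at 455 CPM (408 to 505, 123 cells) in NOD and 362 (339 to 386, 377 cells) in CD1. Capillary-like cells carried it at 13.3 CPM (791 cells) and 18.2 (16.1 to 20.5, 2127 cells). *Col18a1*, the source of endostatin, followed the same order with 34.6 and 23.7 CPM in arterial-like cells and 0.208 and 0.713 in capillary-like cells. *Col13a1* went the other way, with 344 and 468 CPM in capillary-like cells and 126 and 256 in arterial-like cells, as did *Col15a1* with 339 and 340.5 against 90.4 and 182. *Col4a3* was also higher in capillary-like cells, with 39.8 and 77.0 CPM against 14.6 and 35.3. All 5 of these orders held in both libraries with intervals that did not overlap. In single cells *Col13a1* and *Col15a1* were found together in 453 of 1080 NOD and 1557 of 2915 CD1 endothelial-like cells, and *Col13a1* and *Col8a1* in 44 and 217. The separate frequencies of the genes, without regard to cell depth, would give 383 and 1325 for the first pair and 60.2 and 255 for the second.

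**Figure D2:**
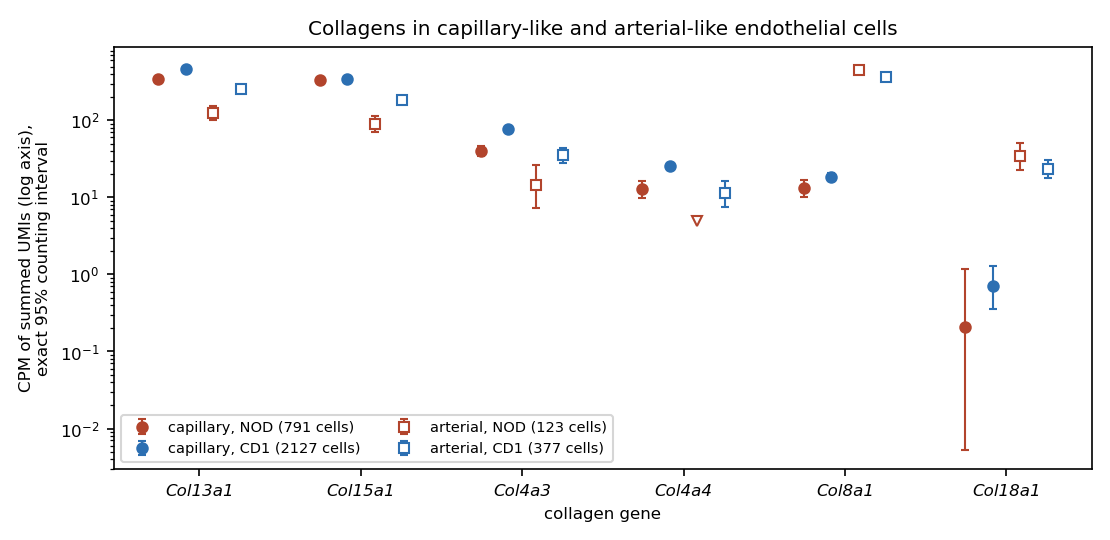
CPM of 6 collagens (log axis) in capillary-like (filled circles) and arterial-like (open squares) endothelial cells of the NOD (red) and CD1 (blue) libraries, with exact 95% counting intervals; the open triangle marks the upper limit for *Col4a4* in arterial-like cells of NOD, where 0 UMIs were found. *Col8a1* and *Col18a1* are higher in arterial-like cells and the other genes in capillary-like cells, in both libraries.

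Between the strains, the summed members were lower in NOD endothelial-like cells, with a log2 ratio of NOD over CD1 of -0.29 (-0.33 to -0.24). Of the 14 members with at least 20 UMIs over both libraries, 2 were at least 2-fold higher in NOD and 2 at least 2-fold lower, beside 8.02% and 3.92% of 14293 genes. The median log2 ratio was 0.16 over the members and 0.08 over those genes. *Col13a1* stood lower in NOD with a log2 ratio of -0.50 (-0.58 to -0.43), and without it the ratio of the sum was -0.12 (-0.18 to -0.06). With released RNA subtracted the ratio of the sum was -0.047, that of *Col13a1* -0.25 and that of *Col4a3* -0.73. That estimate took 21.5% of the NOD and 3.22% of the CD1 endothelial UMIs as released RNA. It was too high for *Serpinh1* in NOD macrophage-like cells (below). Its accuracy in endothelial-like cells was not tested, so the subtracted values are not read as corrected ratios. *Col4a3* had 34.6 CPM against 68.5 (-0.98, -1.20 to -0.77), and *Col4a4*, its partner chain, at 10.2 and 22.9 (-1.16, -1.57 to -0.78). The lower level of both was seen within capillary-like cells as well (39.8 and 77.0 CPM for *Col4a3*, 12.7 and 25.5 for *Col4a4*), and in arterial-like cells *Col4a4* had 0 UMIs in NOD and 28 in CD1. *Col15a1* (-0.05, -0.12 to 0.03) and *Col8a1* (0.05, -0.11 to 0.21) had intervals that reached 0, and with each cell given equal weight the ratio of *Col8a1* was -0.43. Within kinds of vessel the ratios differed. *Col15a1* had -1.01 (-1.40 to -0.64) in arterial-like cells and -0.005 (-0.09 to 0.08) in capillary-like cells. The 16 venous-like cells of NOD held it with 51 UMIs in 13 cells, and the 15 of CD1 with 11 UMIs in 6 cells. No strain ratio is drawn from so few cells. *Col8a1* had 0.33 (0.15 to 0.51) in arterial-like and -0.45 (-0.86 to -0.05) in capillary-like cells. Past 2-fold downwards were *Col4a4* and *Col14a1*, the latter from only 6 UMIs in NOD and 44 in CD1 (-1.19, -2.71 to 0.04).

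Members higher in NOD endothelial-like cells were scarce transcripts. *Col5a1* had 31 UMIs in NOD and 35 in CD1 (5.11 and 1.80 CPM, log2 ratio 1.51, 0.76 to 2.25), and *Col23a1*, a transmembrane collagen, had 21 and 23 UMIs (3.46 and 1.18 CPM, 1.55, 0.63 to 2.47). Their UMIs came from 27 and 34 cells and from 14 and 16 cells. Both genes were far higher in fibroblast-like cells (283 and 199 CPM, and 141 and 92.0), and barcodes with 10 to 100 UMIs carried *Col5a1* at 3.67 CPM in NOD and 1.78 in CD1 and *Col23a1* at 3.88 and 2.08. The intervals of these last values overlapped between the libraries, and the part of released RNA in the endothelial values was not tested.

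Macrophage-like cells carried *Col14a1*, the gene of a fibril-associated collagen otherwise found in fibroblast-like cells. It had 872 UMIs in NOD (217 CPM, 203 to 232) and 4686 in CD1 (238 CPM, 231 to 244), which were 68.7% and 70.1% of the members' UMIs in these cells. A *Col14a1* UMI was found in 39.5% of NOD macrophage-like cells and 52.5% of those of CD1, with median depths of 3360 and 7049 UMIs. After thinning to 500 UMIs the shares were 7.89% and 8.28%, and 0.0503% and 0% in T-like cells. *Col27a1* had 217 and 1104 UMIs (54.1 and 56.0 CPM). Both genes were higher in fibroblast-like cells of each library. *Col15a1* had 101 and 607 UMIs (25.2 and 30.8 CPM). *Col14a1* and *Col27a1* were found in the same cell 99 times in NOD and 537 times in CD1, where their separate frequencies, without regard to cell depth, would give 50.9 and 368. *Col1a1* and *Col3a1*, which lead in fibroblast-like cells, had 0 and 2 UMIs in the macrophage-like cells of NOD and 2 and 1 in those of CD1.

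In macrophage-like cells the summed members had a log2 ratio of -0.10 (-0.19 to -0.01), *Col14a1* one of -0.13 (-0.23 to -0.02) and *Col27a1* one of -0.05 (-0.27 to 0.16). Of 7 members with enough UMIs, 2 were at least 2-fold higher in NOD and 1 at least 2-fold lower, beside 7.64% and 5.39% of 14390 genes, and the median was -0.05 over the members and 0.05 over the genes. These 3 were *Col23a1* with 19 and 15 UMIs (2.64, 1.58 to 3.72), *Col9a3*, a chain of a cartilage collagen, with 8 and 13 (1.60, 0.12 to 2.98), and *Col13a1* with 3 and 36 (-1.29, -3.63 to 0.37). Salivary secretory transcripts, which macrophages do not make, stood at 249 CPM in NOD macrophage-like cells and 255 in the barcodes with 10 to 100 UMIs of that library, and at 576 and 3274 in CD1. Subtracting released RNA in that proportion turned the ratio of the summed members to 1.01 and that of *Col14a1* to 1.08. This took 97.8% of the NOD macrophage UMIs as released RNA. *Serpinh1*, a collagen chaperone gene, stood at 37.6 CPM in those barcodes of NOD but at 1.00 in its macrophage-like cells. The share was thus too high for that gene, and 1.01 and 1.08 are not read as strain differences.

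**Figure D3:**
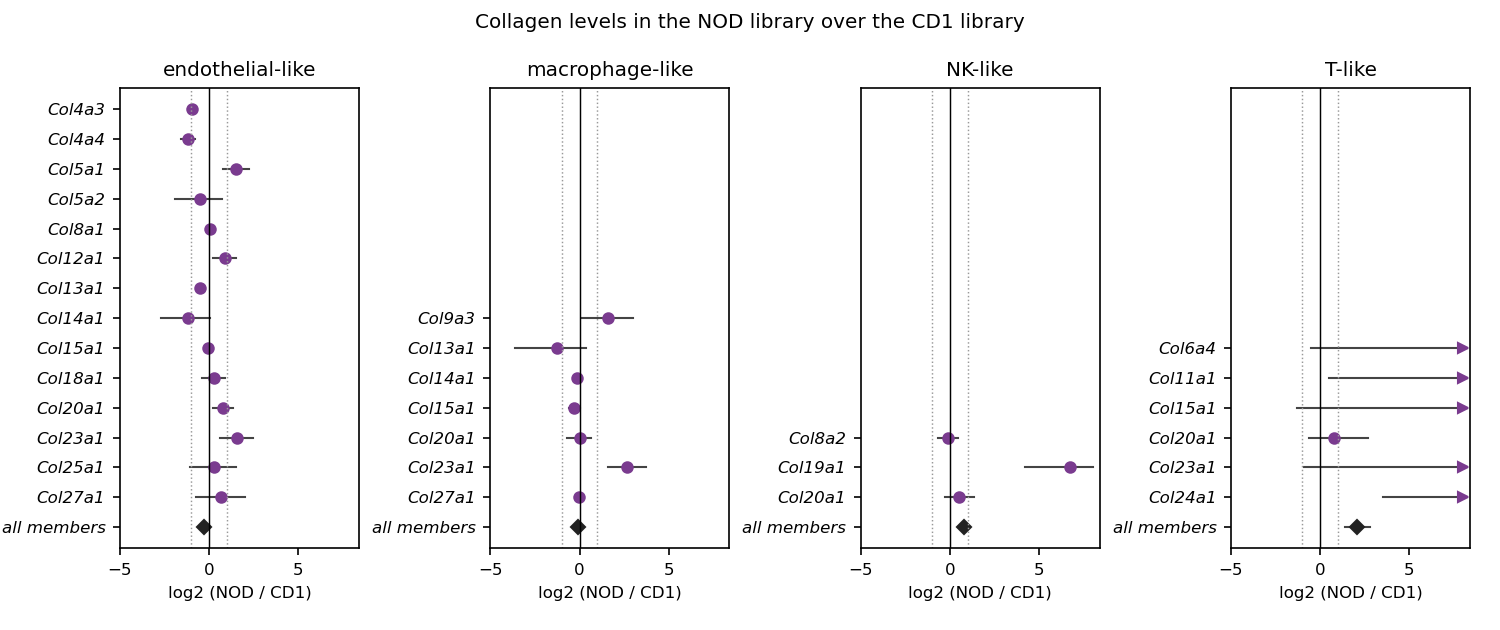
log2 ratio of NOD over CD1 for each collagen with at least 20 UMIs over both libraries (circles) and for the sum of all members (diamonds) in the 4 lineages with at least 100 cells in each library, with 95% counting intervals cut at 8; arrows mark genes with 0 UMIs in CD1, and dotted lines 2-fold. Values of *Col4a3* and *Col4a4* in endothelial-like cells are -0.98 and -1.16, those of *Col15a1* and *Col8a1* there and of *Col14a1* and *Col27a1* in macrophage-like cells lie near 0, and *Col19a1* in NK-like and *Col24a1* in T-like cells lie far to the right.

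Lymphocytes carried few collagen UMIs, and each lineage had a different leading member. In T-like cells of NOD this was *Col24a1*, a fibrillar collagen, with 524 UMIs (40.3 CPM, 37.0 to 43.9), or 57.9% of the members' UMIs. They came from 75 of 1988 cells (3.77%), of which the highest held 69 UMIs and the 10 highest together 54.0%. With a *Cd4* UMI and none of *Cd8a* or *Cd8b1*, 66 of 957 cells (6.90%, 5.37 to 8.69) carried the gene. With *Cd8a* or *Cd8b1* and no *Cd4*, 0 of 433 had a UMI of it, and the limit for detection in such cells is 0.693%. In CD1 no T-like cell carried *Col24a1*, 0 of 133, which allows up to 2.26%. Against the floor of 3 UMIs its level was 14.4-fold higher in NOD, and the counting interval began at a log2 ratio of 3.54. Only 37 of these CD1 cells had *Cd4* alone, and 0 of 37 allows up to 8.11%, a limit above the 6.90% of the NOD *Cd4* cells. Fibroblast-like cells also held the gene, at 13.4 CPM in NOD and 38.3 in CD1, from 8 and 5 UMIs, and barcodes with 10 to 100 UMIs held it at 5.10 and 1.19.

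The 66 NOD *Cd4* cells with *Col24a1* had more UMIs than the other 891, with a median of 8857.5 against 6454. Among 4094 genes kept for being found in at least 30% of these 66 cells, a choice that favours genes high in them, those furthest above the other *Cd4* cells were *Stfa3*, a stefin protease inhibitor (739 against 30.1 CPM, 24.6-fold), *Nrgn*, which encodes neurogranin (17.7-fold), *Galnt14* (16.5-fold) and *Atp2b2*, a plasma membrane calcium pump (16.3-fold). *Pdcd1*, the inhibitory receptor PD-1, stood at 188 against 66.3 CPM, and *Cxcr5*, the chemokine receptor of follicular helper T cells, at 52.8 against 19.4. *Bcl6*, the factor of follicular helper T cells, stood at 64.5 against 52.9 CPM, *Ccr7* at 38.1 against 35.1 and *Il2ra* at 83.6 against 91.2. *Foxp3*, the regulatory T cell factor, stood at 16.1 against 48.7 CPM. These genes were chosen after their values were seen, and the values describe 66 cells of 1 library. *Col11a1* had 64 UMIs in 7 T-like cells of NOD (0.352%), 1 of them with 27, and 0 in CD1. There 0 of 133 cells allows up to 2.26%, above the NOD share, so no strain difference can be read for this gene.

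In NK-like cells of NOD the leading member was *Col19a1*, a fibril-associated collagen, with 118 UMIs (34.5 CPM, 28.6 to 41.3) in 25 of 465 cells (5.38%, 3.51 to 7.83). In CD1 it had 1 UMI in 299 cells (0.334%, 0.00847 to 1.85), a log2 ratio of 6.71 with an interval of 4.21 to 12.03. The 10 highest cells held 76.3% of the NOD UMIs. Cells between the T and NK lists, which were given to neither, carried it with 13 UMIs in NOD (2.16 CPM) and 8 in CD1 (5.38 CPM). In NOD, NK-like cells with a UMI of *Eomes*, a factor of circulating NK cells, carried *Col19a1* at 49.5 CPM and those without at 3.59. The cells with the gene also had more *Itga2* (857 against 339 CPM) and *Tcf7* (327 against 135) and less *Itga1* (206 against 455) than the other NK-like cells. The cytotoxic genes *Gzma* (1172 against 1705 CPM) and *Prf1* (175 against 298) and the receptor *Ncr1* (1005 against 1191) were lower in them. All were looked up after the carriers were known. The 25 cells with *Col19a1* had a median of 10247 UMIs and the others 6776.

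*Col8a2*, the partner of *Col8a1* in other tissues, was found at a like level in NK-like cells of both strains. It had 57 UMIs in 42 cells of NOD (16.7 CPM, 12.6 to 21.6) and 55 in 40 cells of CD1 (18.1 CPM, 13.6 to 23.5), a log2 ratio of -0.12 (-0.68 to 0.45). T-like cells carried it at 0.847 and 1.87 CPM, macrophage-like cells at 0.997 and 0.558, and endothelial-like cells at 0.165 and 0.103. Fibroblast-like cells held 7 and 6 UMIs (11.7 and 46.0 CPM), with intervals that overlapped those of NK-like cells. In CD1 it stood at 28.6 CPM in *Eomes* cells and 5.71 in the others, and in NOD at 18.2 and 13.5 with intervals that overlapped. The summed members were higher in NOD NK-like cells, with a log2 ratio of 0.82 (0.51 to 1.13), which was -0.01 (-0.36 to 0.33) without *Col19a1*. In T-like cells the ratio was 2.05 (1.38 to 2.81), from 905 and 18 UMIs, and 0.80 (0.12 to 1.57) without *Col24a1*. Among 3 members in NK-like and 6 in T-like cells with enough UMIs, 1 in each was at least 2-fold higher in NOD and 0 lower, beside 5.81% and 4.05% of 11295 genes and 10.5% and 6.2% of 13010. These UMIs lie in few cells, so the counting intervals are too narrow for the genes named here.

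B-like cells of NOD carried *Col6a4*, a type VI chain, at 35.8 CPM (30.6 to 41.5), with 172 UMIs in 128 of 889 cells and at most 5 in a cell. T-like cells held it at 2.54 CPM and fibroblast-like cells not at all, and 81.1% of its UMIs over the lineages were in B-like cells. CD1 had 8 B-like cells, all without the gene, which allows any share up to 37.5%. Barcodes with 10 to 100 UMIs held it at 7.76 CPM in NOD. *Col20a1*, a fibril-associated collagen, was spread over the lineages, with 26.8 and 23.0 CPM in fibroblast-like cells from 16 and 3 UMIs, 5.98 CPM in macrophage-like cells of each library, and 4.42 to 10.8 CPM in endothelial-like and NK-like cells.

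**Figure D4:**
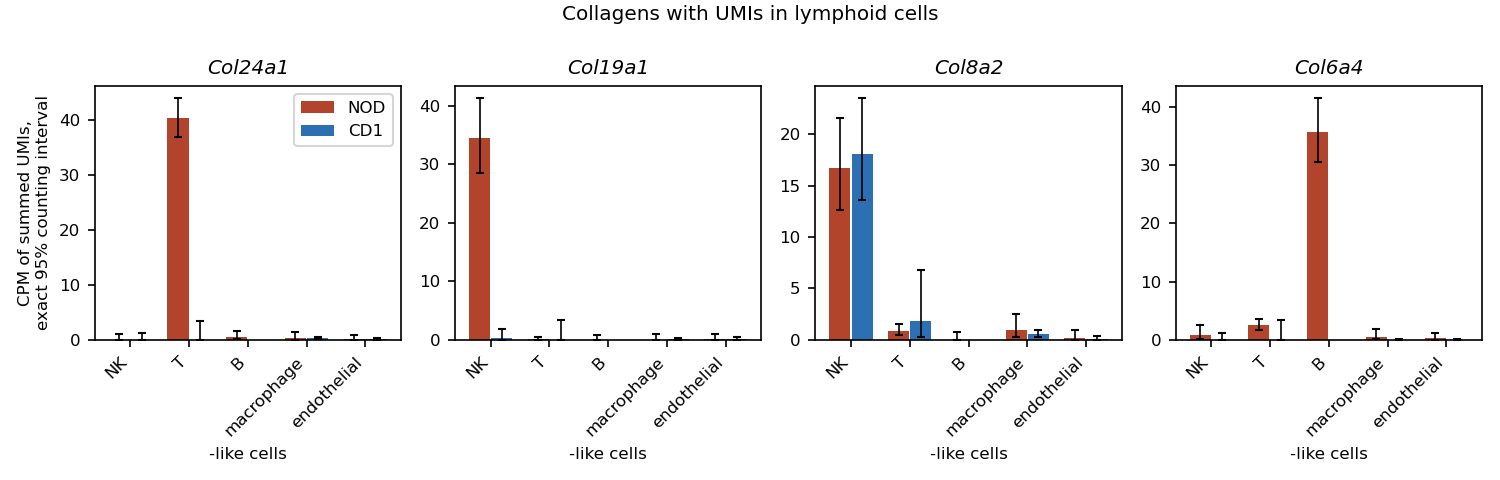
CPM of 4 collagens in NK-like, T-like, B-like, macrophage-like and endothelial-like cells of the NOD (red) and CD1 (blue) libraries, with exact 95% counting intervals; B-like cells of CD1 (8 cells) are not drawn. *Col8a2* has bars of like height in NK-like cells of both libraries, whereas *Col24a1*, *Col19a1* and *Col6a4* have a tall bar in NOD T-like, NK-like and B-like cells.

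The stretch of 100 bases before the gene start is given for members that stand for the groups above and whose start in the RefSeq table (GRCm38.p6, an older build than that of the files) is the outer end of the gene. *Col1a2* and *Col3a1* were the leading fibroblast pair, *Col8a1* the arterial member and *Col24a1* the T-like member. The table had 33 of the 42 members. Capitals mark GGGCGG, the core of a GC box, on either strand.
Col1a2, chr6:4505518-4505617, plus strand: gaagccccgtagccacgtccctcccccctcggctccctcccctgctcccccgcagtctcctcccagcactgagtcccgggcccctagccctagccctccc
Col3a1, chr1:45311438-45311537, plus strand: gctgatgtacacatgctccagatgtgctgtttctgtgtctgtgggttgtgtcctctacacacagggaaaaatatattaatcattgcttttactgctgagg
Col8a1, chr16:57754738-57754837, minus strand: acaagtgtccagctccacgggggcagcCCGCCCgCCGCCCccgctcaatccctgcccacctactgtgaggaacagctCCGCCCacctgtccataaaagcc
Col24a1, chr3:145292372-145292471, plus strand: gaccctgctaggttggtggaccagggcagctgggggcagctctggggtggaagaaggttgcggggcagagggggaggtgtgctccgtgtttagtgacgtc
The windows of *Col1a2* and *Col3a1* differed in base composition, with 74.0% and 43.0% G or C, although the genes led in the same cells. GGGCGG was present 3 times before *Col8a1* and in 24.7% of all 32851 windows of this length. TATAAA and CCAAT, searched on both strands, were in none of the 4 windows and in 5.56% and 18.9% of all.

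Genes for making collagen followed the members only in part. Of 33 genes for folding, modifying, trimming and cross-linking collagen, 31 had at least 20 UMIs in NOD and 21 of these were highest in fibroblast-like cells, with 7 in mural-like, 2 in endothelial-like and 1 in NK-like cells. Over all genes of that depth 15.0% were highest in fibroblast-like, 21.4% in mural-like, 13.5% in endothelial-like and 12.3% in NK-like cells. In CD1 it was 19 of 29. *Loxl1*, a cross-linking enzyme, stood at 251 and 245 CPM in fibroblast-like cells and below 1 in endothelial-like, macrophage-like, NK-like and T-like cells. *Serpinh1*, the collagen chaperone HSP47, stood at 734 and 675 CPM in fibroblast-like cells and at 221 and 254 in endothelial-like cells, but at 1.00 and 0.963 in macrophage-like cells, which carried *Col14a1* at over 200 CPM. *Adamts14*, a procollagen N-proteinase, was highest in NK-like cells, with 642 UMIs (188 CPM) and 287 UMIs (94.3 CPM). Of 24 genes of this list with enough UMIs in endothelial-like cells, 3 were at least 2-fold higher in NOD and 1 lower. Over all genes the shares were 8.02% and 3.92%. The 3 included *P3h2*, a prolyl hydroxylase that acts on basement membrane collagen, with 20.1 CPM in NOD and 5.19 in CD1 (log2 ratio 1.95, 1.56 to 2.35). In T-like cells 1 of 15 was higher (*P4ha1*) and 4 were lower (*P4ha2*, *Plod2*, *Crtap* and *Colgalt2*), beside 10.5% and 6.2%. The CD1 counts of these 4 were 11, 30, 14 and 18 UMIs. In macrophage-like cells 0 of 17 were higher and 1 lower, beside 7.64% and 5.39%. In NK-like cells 0 of 11 were higher and 1 lower, beside 5.81% and 4.05%.

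Of 11 collagen receptors, 10 had enough UMIs in each library. *Ddr2*, *Itga11* and *Mrc2*, the latter an uptake receptor for collagen, were highest in fibroblast-like cells in both. *Itga1* and *Adgrg1* were highest in endothelial-like cells, *Lair1*, an inhibitory receptor of leukocytes, in macrophage-like cells (449 and 326 CPM), and *Itga2* and *Itgb1*, which pair as a collagen integrin, in NK-like cells. Between strains *Itga2* was higher in NOD NK-like cells (378 against 134 CPM, log2 ratio 1.49, 1.33 to 1.66). In NOD endothelial-like cells it was lower (9.07 against 35.1 CPM, -1.95, -2.38 to -1.55). Receptors at least 2-fold higher and lower in NOD were 1 and 0 of 4 in NK-like and 1 and 1 of 8 in endothelial-like cells. In macrophage-like cells they were 1 and 0 of 3, and in T-like cells 2 and 1 of 7. The shares of all genes, in that order, were 5.81% and 4.05%, 8.02% and 3.92%, 7.64% and 5.39%, and 10.5% and 6.2%. *Eomes* UMIs were found in 257 of 465 NOD and 134 of 299 CD1 NK-like cells. The part of this in *Itga2* was not tested.

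The remaining 11 members had fewer than 20 UMIs in every lineage of both libraries. *Col2a1*, the main cartilage collagen, had 0 UMIs in the 7 lineages. *Col9a1*, *Col9a2*, *Col22a1* and *Col28a1* had at most 5 in any lineage, and *Col7a1*, the anchoring fibril of skin, at most 6. *Col10a1* and *Col11a2* had at most 14 and 11, and *Col9a3* at most 16. *Col4a6* and *Col17a1*, a hemidesmosome collagen of epithelium, had at most 8 and 9 in a lineage but 61 and 53 UMIs over all kept NOD cells and 141 and 92 over those of CD1, which included cells outside the 7 lineages.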

How the data were processed

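The authors aligned the reads with Cell Ranger 8.0.0 to GRCm39 and deposited raw UMI count matrices for both libraries, and the submitters' processing notes also name Seurat 5.0.1 and R 4.3.1. From these counts, barcodes with at least 500 UMIs and 300 genes were kept. A cell was given to a lineage when at least 3 markers were detected and at least 75% of its marker UMIs came from 1 list; the T and NK lists were pooled for that share and told apart by at least 2 times as many distinct markers detected, and a list with a single marker detected was not counted. Members and lists were chosen with earlier results of these data known, and this scoring rule was set after marker counts were seen. All 42 members are accounted for, and those with at least 20 UMIs in a lineage of a library are described. UMIs were summed per lineage. Levels have exact Poisson intervals, shares Clopper-Pearson intervals, and ratios conditional binomial intervals, all at 95%. A gene at 0 was set against a floor of 3 UMIs, and for 0 cells the limit given is 3 cells of the total, not the Clopper-Pearson bound. With 1 library per strain no test was run. No doublet caller was used in the reported values; cells with mixed markers were left out, and Scrublet was an alternative. The ratio step was tested on simulated data. Python 3.11.15, numpy 2.4.6, scipy 1.17.1, pandas 2.3.3, matplotlib 3.10.9 and scanpy 1.11.5 were used.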

Additional observations from a re-analysis of the deposited data

How the results depend on the processing

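Subtracting released RNA changed the log2 ratio of NOD over CD1 of the summed members in endothelial-like cells from -0.29 to -0.047, turned that in macrophage-like cells from -0.10 to 1.01, and raised the number of member ratios past 2-fold from 9 to 15. The estimate gave released RNA 21.5% of the endothelial UMIs in NOD and 3.22% in CD1. For the macrophage UMIs the shares were 97.8% in NOD and 17.6% in CD1. In B-like cells of NOD the estimate assigned 120.5 CPM of members, more than the 63.2 measured. The endothelial ratio was -0.36 with median-of-ratios scaling and -0.35 without *Col4a3* to *Col4a6*, *Col15a1* and *Col18a1*; the cause was not tested. Under the other processing alternatives it lay between -0.29 and -0.24, and the macrophage ratio between -0.15 and -0.06. Under all processing alternatives the NK ratio lay between 0.78 and 1.08 and the T ratio between 1.66 and 2.58. Without the leading member of each lineage, which is no processing choice, the ratios were -0.12 (endothelial, *Col13a1*), -0.034 (macrophage, *Col14a1*), -0.015 (NK, *Col19a1*) and 0.80 (T, *Col24a1*). Members highest in fibroblast-like cells numbered 23 to 25 in NOD and 20 to 22 in CD1. Leaving out the 18 shared barcodes, weighting endothelial subgroups and the fibroblast alternatives were chosen after seeing the data. No paired analysis was possible because each strain had 1 library, and no replicate could be left out.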
